A study of Drosophila melanogaster with 4 samples.

Results

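Members of 4 families of immunoglobulin-domain cell surface genes that guide the wiring of the fly nervous system were examined for H3K4me1, the mono-methylation of lysine 4 of histone H3. They are the dpr, DIP, beat and side genes on chromosome arms 2L and 3R of Drosophila melanogaster, chosen by gene symbol and by position. There are 37 of them among 6039 protein-coding genes on these arms. They comprise 10 dpr, 7 DIP, 14 beat and 6 side genes, with 16 on 2L and 21 on 3R. The gene table lists 54 genes of these families on all chromosomes, and those on other arms were not analysed here.

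The data are from chromatin immunoprecipitation and sequencing (ChIP-seq) of whole wild-type Oregon-R embryos, 14 to 16 h old, with the H3K4me1 antibody ab8895 (labelled new lot 2). All libraries share this strain, stage and genotype. There were 2 ChIP libraries, each with a deposited list of enriched regions, and a combined list for both. The 2 input libraries were not analysed here. Whether the replicates were separate collections of embryos is not stated in the labels, and their spread may be technical. Replicate 1 had 7601 regions, replicate 2 had 7401, and the combined list had 8219. Positions of regions are on FlyBase release 5. Gene spans came from a RefSeq table on release 6, placed on release 5 by the known relation of the releases on these arms. The combined list is the authors' merger of the same libraries and carries no replicate error.

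Dpr and DIP proteins are cell surface proteins that bind each other across cell contacts, and each Dpr binds a small set of DIPs. They are displayed by different neuron types and act in the choice of synaptic partners. Beat proteins are receptors or secreted proteins of neurons that bind proteins of the Side family. Sidestep, the product of side, is displayed by muscle and attracts motor axons that carry Beat-Ia, the product of the founding beaten path gene. Late embryogenesis, which these samples cover, is when motor axons have reached their muscles and synapses form. H3K4me1 is a mark of enhancers and of the flanks of active promoters.

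Most of these genes had no listed H3K4me1 region. A region overlapped the gene span plus 2 kb on each side in 10 of 37 genes in replicate 1 and in 10 of 37 in replicate 2, or 27.0% in each (exact Clopper-Pearson 95% interval 13.8 to 44.1). Over all protein-coding genes of these arms the share was 72.3% in replicate 1 and 70.3% in replicate 2. For the combined list the count was 13 of 37 genes (35.1%, interval 20.2 to 52.5), against 75.0% of all genes. In 24 of the 37 genes no list held a region (64.9%, interval 47.5 to 79.8), while this was so for 24.9% of all genes. The intervals cover counting error only and treat neighbouring genes as independent, which they are not. With 1 group and 2 replicate lists no test over samples was possible, so every comparison here is a description set beside the replicate spread.

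Both replicates gave nearly the same picture. The libraries made the same call, region or no region, for 35 of 37 genes. Of these, 9 had a region in both replicates (all genes: 69.6%) and 26 in neither. The covered share of the span plus 2 kb differed most between replicates at DIP-iota, where the SD was 7.97 percentage points (n = 2). Taking the bases of all members together, regions covered 3.28% ± 0.16 (SD, n = 2) of their spans plus 2 kb. The same measure was 37.9% ± 1.48 for the other protein-coding genes.

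**Figure D1:**
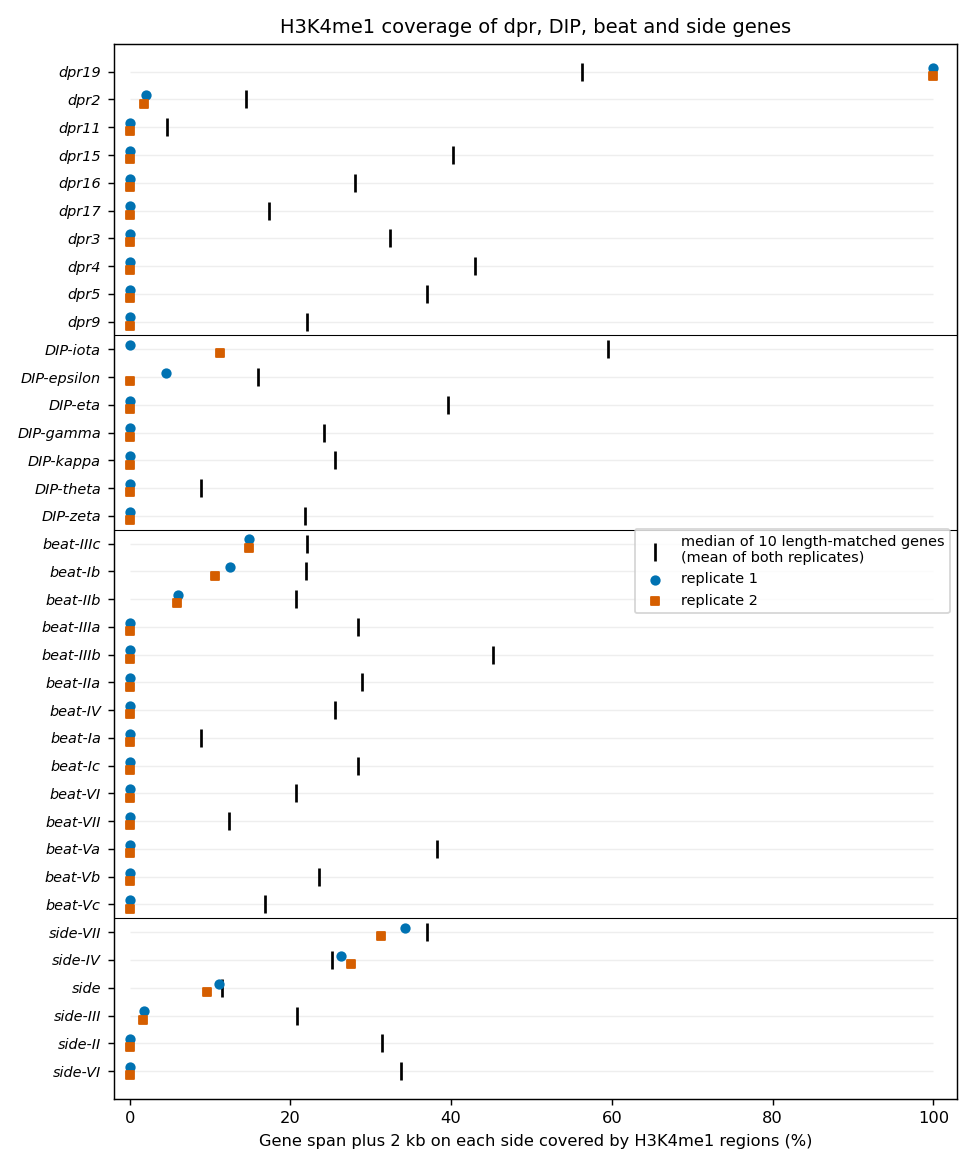
Share of each gene span plus 2 kb on each side that is covered by H3K4me1 regions (x axis, %), for 37 genes grouped by family and ordered by the mean of both replicates. Circles are replicate 1, squares are replicate 2, and ticks mark the median of 10 length-matched genes. In both replicates 35 of the 37 genes lie below their tick, and dpr19 and side-IV lie above it.

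The members are long, with a median length of 32.8 kb against 2.04 kb for the other genes, and long genes have more room for regions. Each member was therefore set beside the 10 other protein-coding genes of its arm nearest in length. These came to 278 different genes, whose lengths were 0.870 to 1.17 times that of the member. In replicate 1, 86.0% of them had a region, and in replicate 2, 83.5%. The combined list gave 88.5%. None of the lists held a region in 11.5% of them (interval 8.0 to 15.9). The covered share was below the median of the matched genes for 35 of 37 members in both replicates. The median over members of this difference was -24.5 percentage points in replicate 1 and -19.7 in replicate 2. The matches of beat-IIIa include CG34106, which has the same span as beat-IIIa. With matched genes that overlap a member left out, the mean of both replicates was -22.1 percentage points, the same as with them. Of all protein-coding genes of at least 10 kb, 11.2% lacked a region in every list, and 21 of the 31 members of that length did (67.7%).

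Members of at least 5 kb had a lower share than other genes in each length class. Of the 2 shorter members, dpr19 had a region in both replicates and DIP-iota in replicate 2, against 68.1% and 66.1% of 4630 other genes under 5 kb. Of 4 members of 5 to 10 kb, 1 had a region in each replicate, against 86.9% and 85.3% of 619 other genes. Of 7 members of 10 to 20 kb, 1 had a region in each replicate (14.3%), against 91.3% and 89.6% of 355 other genes of this length. Of 15 members of 20 to 50 kb, 3 had a region in replicate 1 and 2 in replicate 2, against 85.7% and 82.0% of 294 other genes. The gap was narrower for the longest genes. Of 9 members of 50 to 100 kb, 4 had a region in each replicate (44.4%), against 82.9% and 81.6% of 76 other genes. Across the 37 members, length and mean covered share had a Spearman rho of -0.035, a description over genes that share the same libraries.

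**Figure D2:**
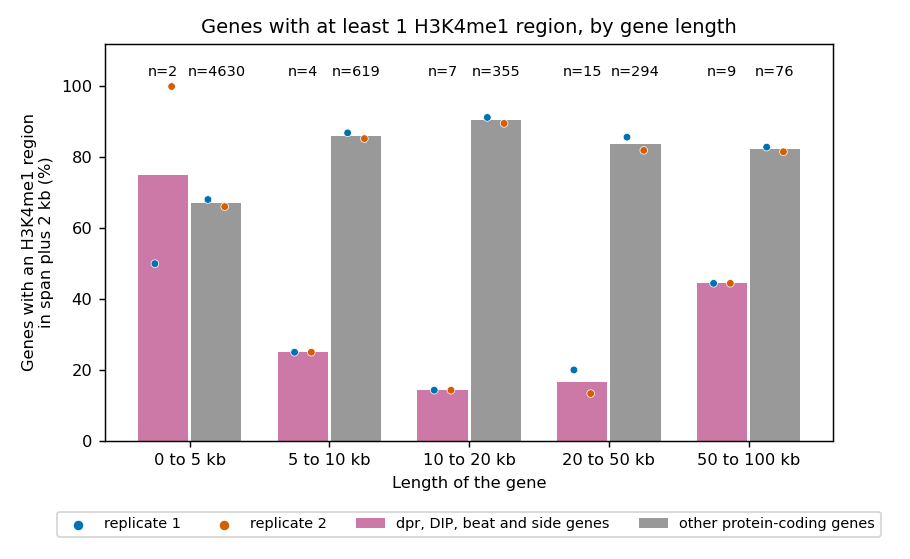
Share of genes with at least 1 H3K4me1 region in the span plus 2 kb (y axis, %) by gene length (x axis), for the members and the other protein-coding genes of 2L and 3R. Bars are means of both replicates, points are the replicates and n is the number of genes. In the classes from 5 kb up the members' bar, at 14.3% to 44.4%, is lower than that of the other genes, at 82.2% to 90.4%. In the class under 5 kb, with 2 members, it is higher, at 75.0% against 67.1%.

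The dpr genes encode the membrane-anchored partners of the DIP proteins. Of the 10 dpr genes, 8 had no region in any list, against 10.0% of their length-matched genes. The 8 are dpr3, dpr4, dpr5, dpr9, dpr11, dpr15, dpr16 and dpr17. The other two are dpr19 and dpr2, and the regions at both also touched neighbouring genes. The short gene dpr19 (3.74 kb) was covered to 100% in all 3 lists by a single region, at 10373815 to 10382375 on 2L in the combined list (score 1.04). This region also overlapped the coding genes rho-5, CG33303, gny and CG5096. At dpr2 (47.1 kb) the covered share was 2.06% in replicate 1 and 1.80% in replicate 2, with 2.07% in the combined list. Its region, at 10965095 to 10972293 on 2L (score 0.99), began 941 bp beyond the gene and overlapped Tmem214, YL-1 and CG16743. The body of dpr2 itself therefore held no listed region.

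DIP genes encode the binding partners of the Dpr proteins. Of the 7 DIP genes, DIP-gamma, DIP-zeta, DIP-eta, DIP-theta and DIP-kappa had no region in any list. This was so for 10.0% of the length-matched genes of this family. DIP-epsilon was covered to 4.53% in replicate 1 and to 0% in replicate 2, with 5.40% in the combined list. Its weak combined region, at 6410169 to 6412195 on 2L (score 0.35), crossed the high-coordinate end of the gene and touched no other coding gene. DIP-iota had 0% in replicate 1 and 11.3% in replicate 2, with 13.5% in the combined list. That region, at 6610451 to 6616291 on 2L (score 0.90), lay outside DIP-iota by 842 bp and overlapped CG11050. In replicate 1 the nearest region to DIP-iota was 2391 bp away, just beyond the limit of 2 kb, so the difference between the replicates there rests on where one region ends. No DIP gene had a region in both replicates, against 59 of the 70 length matches made for this family.

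The interaction between Dpr11 and DIP-gamma is among the best studied of the network and acts in the visual system and at motor synapses. Dpr15, Dpr16 and Dpr17 also bind DIP-gamma. All 5 genes, dpr11, dpr15, dpr16, dpr17 and DIP-gamma, had a covered share of 0% in each of the 3 lists. The nearest combined region was 46288 bp from dpr11, 11348 bp from dpr15, 15222 bp from dpr16, 12035 bp from dpr17 and 8779 bp from DIP-gamma. For these partners neither side of the pairing carried a listed region. The same was so for 24 of all 37 members (64.9%), and whether these 5 differ from the rest was not tested. The genes dpr17 and dpr15 also lie close to each other on 3R and are not separate cases.

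Beat genes encode the partners of the Side proteins. Of the length matches made for the beat family, 15.7% had no region in any list, and 111 of 140 had one in both replicates. Of the 14 beat genes, 10 had no region in any list, 3 had a region in both replicates and 1 had regions in the combined list alone. The 3 are beat-IIIc, beat-Ib and beat-IIb, and each had at least 1 region wholly inside the gene, and their regions overlapped no other coding gene. In beat-IIIc (73.1 kb) the covered share was 14.8% in replicate 1 and 14.8% in replicate 2, with 20.7% in the combined list. Its 3 inner regions found in both replicates stood in the combined list at 17220787 to 17223394 (score 0.42), 17226105 to 17230369 (score 0.87) and 17241238 to 17245702 (score 0.62) on 2L. The strongest of them was at percentile 67.1 of all scores in replicate 1 and 51.2 in replicate 2. Another stood 584 bp beyond the gene at 17261319 to 17263913, and 2 weaker ones inside the gene were found in the combined list alone.

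In beat-Ib (57.3 kb) the covered share was 12.5% in replicate 1 and 10.6% in replicate 2, with 13.9% in the combined list. The region lay near the low-coordinate end of the gene, at 15906480 to 15914991 on 2L (8512 bp, score 1.01), and held the noncoding genes lncRNA:CR44867 and lncRNA:CR44868. It ranked at percentile 83.8 in replicate 1, the highest of all member regions there. Replicate 2 listed it as 2 regions, of which the larger ranked at percentile 78.8, also the highest there. In beat-IIb (32.8 kb) a single inner region of 2356 bp, at 13073653 to 13076008 on 3R (score 0.57), covered 6.06% of the span plus 2 kb in replicate 1 and 5.95% in replicate 2, with 6.40% in the combined list. Its neighbour beat-IIa had 0% in both replicates and 4.66% in the combined list, from regions of 1205 and 1129 bp with scores of 0.29 and 0.45.

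The founding gene beat-Ia, which is needed for motor axons to leave their bundle, had 0% in each of the 3 lists. The nearest combined region was 84732 bp away. The same held for beat-Ic, with the nearest at 85299 bp, and for beat-IIIa, beat-IIIb, beat-IV, beat-VI and beat-VII. It also held for beat-Va, beat-Vb and beat-Vc, which encode partners of Side-VI.

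Side proteins are the binding partners of the Beats. Of the 6 side genes, 4 had a region in each replicate (66.7%, interval 22.3 to 95.7), against 78.3% of their length-matched genes in each. In the combined list 5 of 6 did (83.3%), the same share as of their length-matched genes, and 3 side genes had a covered share above the matched median and 3 below it. In the replicates 1 lay above and 5 below. The equal share in the combined list counts regions in the flanks. Inside the gene itself, 50.0% of side genes had a combined region, against 78.3% of their length-matched genes. Taking all bases together, combined regions covered 7.66% of the side genes plus 2 kb, against 31.0% of their length-matched genes. In each replicate the other families had a region at 2 of 10 dpr, 1 of 7 DIP and 3 of 14 beat genes. The intervals of the families overlapped, that of the beat genes being 4.7 to 50.8%, and the difference between families was not tested.

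In side itself (62.4 kb), the muscle attractant, the covered share was 11.2% in replicate 1 and 9.64% in replicate 2, with 18.6% in the combined list. Both replicates held regions at 2 places well inside the gene. These are the combined regions at 23238047 to 23243003 (score 0.56) and at 23250439 to 23253063 (score 0.48) on 3R. A weak region at 23262295 to 23264121 (score 0.30) crossed the high-coordinate end. The strongest nearby region, at 23264946 to 23269363 (score 0.86), lay 1741 bp beyond that end and overlapped CG44290 and CG43447. Its partner gene beat-Ia, as given above, had no region in any list.

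In side-IV (13.6 kb), which encodes the partner of Beat-IIa and Beat-IIb, the covered share was 26.4% in replicate 1 and 27.5% in replicate 2, with 37.4% in the combined list. The combined region at 9271016 to 9280889 on 3R was 9874 bp wide, the widest at any member, with a score of 0.63. It crossed the low-coordinate end and overlapped no other coding gene. Besides dpr19, side-IV was the sole member above the median of its matched genes in both replicates, with 26.4% against 25.6% in replicate 1 and 27.5% against 24.9% in replicate 2.

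In side-VII (5.97 kb) the covered share was 34.3% in replicate 1 and 31.2% in replicate 2, with 44.8% in the combined list. Its main region, at 5564296 to 5568341 on 3R (score 0.91), crossed the high-coordinate end and overlapped the neighbour Pnn. At side-III (96.7 kb, the longest member) the covered share was 1.75% and 1.71% in the replicates and 1.79% in the combined list, from a region at 1685248 to 1688384 on 3R (score 0.72) that lay 202 bp outside the gene and overlapped CG2017. In side-II a region of the combined list alone lay 748 bp outside the gene (1.82%, score 0.27). No list held a region at side-VI (77.8 kb), as at its partners of the beat-V group.

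**Figure D3:**
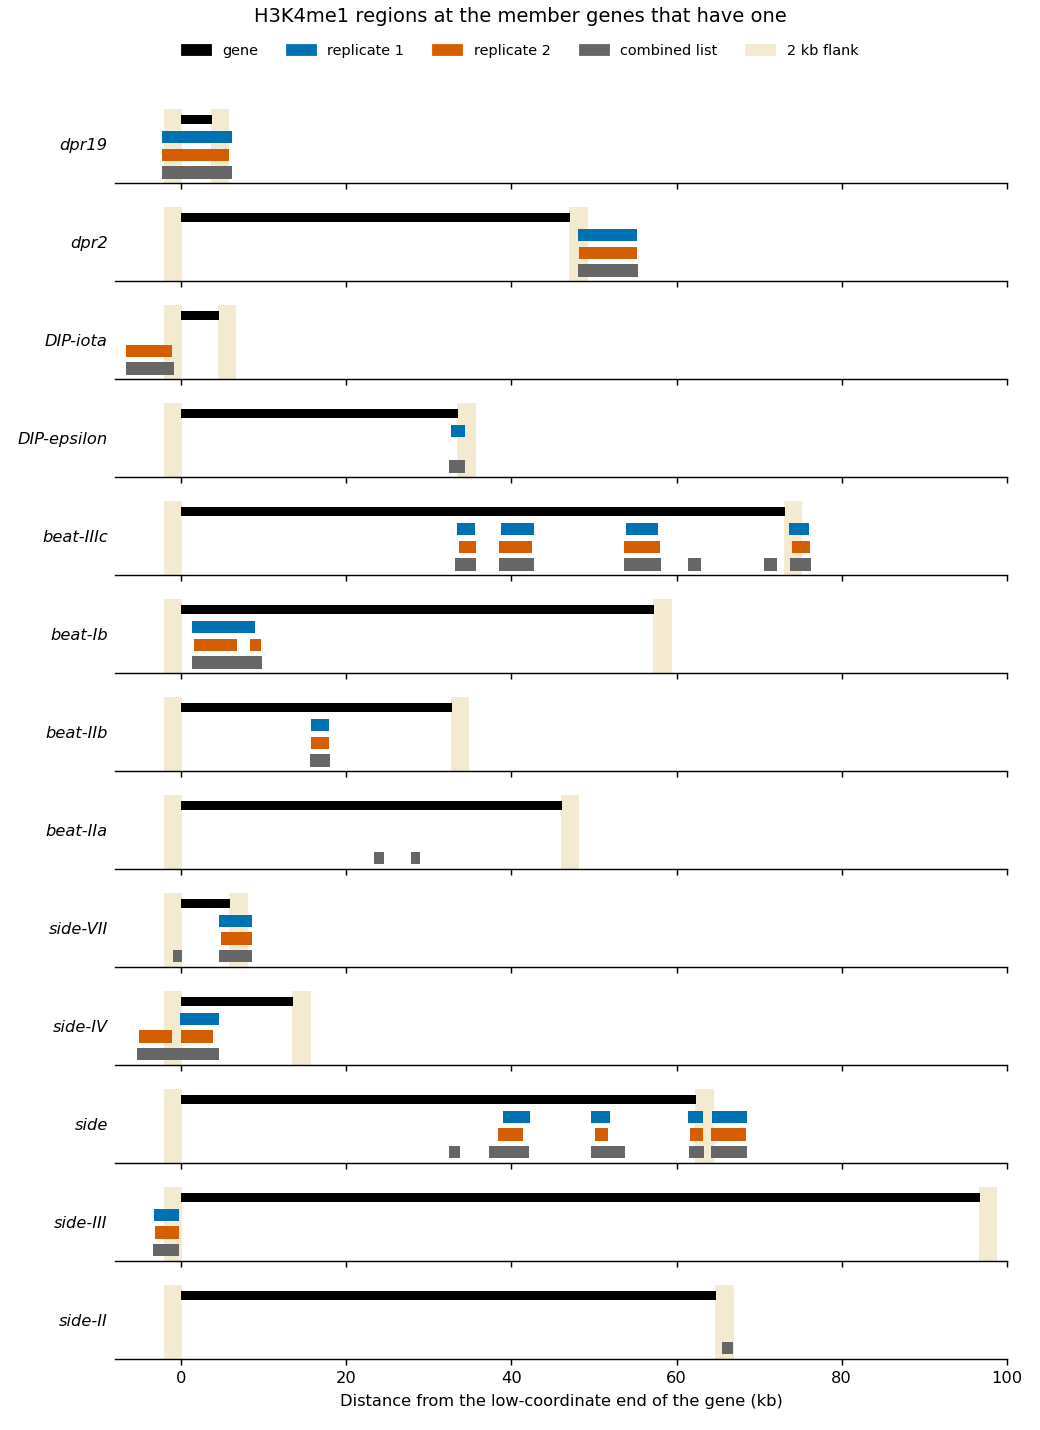
The 13 members with a region in at least 1 list, each drawn from its low-coordinate end (x axis, kb). The black bar is the gene, shaded bands are the 2 kb flanks, and blue, orange and grey bars are regions of replicate 1, replicate 2 and the combined list. Inner regions that recur in both replicates are seen in beat-IIIc, beat-Ib, beat-IIb, side-IV and side, while those of dpr2 and side-III lie outside the gene.

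The 13 members with a region thus fall into groups by where the region lies. In 5 of them (dpr19, dpr2, DIP-iota, side-VII and side-III) every region also overlapped another coding gene, so it cannot be told which gene it belongs to. In 5 (beat-IIIc, beat-Ib, beat-IIb, side-IV and side) both replicates held a region that overlapped no other coding gene. DIP-epsilon had such a region in 1 replicate, and beat-IIa and side-II in the combined list alone. The share of all genes or of length-matched genes in these groups is not given, so whether the counts are low or high for such long genes cannot be told. A region inside the gene body proper was listed for 8 members in replicate 1 (21.6%) and for 7 in replicate 2 (18.9%), against 62.9% and 61.1% of all genes. With the combined list it was 9 members (24.3%), against 65.6% of all genes.

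Regions at the members had median scores near or below those of all regions on these arms. The score is the authors' own, on a scale that the sources used here do not state, and is used to rank regions within a list. Members had 16 regions in replicate 1 and 18 in replicate 2, with 25 in the combined list. Their median score was 0.80 in replicate 1 against 0.78 for all regions of these arms, and 0.69 against 0.81 in replicate 2. The combined list gave 0.54 against 0.63, and 3 of its 25 member regions ranked in the top 25% of scores. The combined regions that overlapped another coding gene numbered 7 and had a median score of 0.90. The 18 that overlapped none had 0.43. This direction was the same in replicate 1 (0.92 and 0.63) and replicate 2 (0.92 and 0.61). The same split is not given for all regions of these arms, so whether it is particular to the members cannot be told. Of the 25 combined regions, 16 overlapped a region in both replicates and 8 in neither.

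Gene ends were also mostly free of regions. The gene table gives no strand, so the start of a gene could not be told from its end, and both ends were taken. Either end lay in a region in 5 of 37 members in replicate 1 (13.5%) and in 3 of 37 in replicate 2 (8.11%). For all protein-coding genes the shares were 60.0% and 57.8%. By the combined list it was 5 members (13.5%), against 62.9% of all genes.

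Members without a region often stood in long stretches that held no region at all. Of the 37 members, 28 had no combined region inside the gene, and they lay in 23 stretches of 24.2 to 292.5 kb, with a median over these members of 118.8 kb. Of the 278 length-matched genes, 40 had no region inside the gene (14.4%, against 75.7% of members), and the median over them was 91.0 kb. A stretch is at least as long as the gene in it, so long genes select long stretches. Of the 55 stretches of at least 100 kb on these arms, 14 held a member, against 23 of all 3306 stretches. How many of the 55 held a length-matched gene is not given, so whether 14 is many for such long genes cannot be told. For the 24 members without a region in any list, the nearest region was never closer than 8.12 kb in replicate 1 and 9.56 kb in replicate 2. In the combined list the closest was at 4.62 kb, beside dpr9. These 24 were chosen for having no region within 2 kb, so shorter distances were left out beforehand. No such distances are given for length-matched genes.

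The longest of these, of 292.5 kb, ran on 2L from 16928249 to 17220786 and held beat-IIIb and beat-IIIa. It was the second longest of both arms, after one of 314.1 kb. The next, of 251.4 kb, ran on 2L from 15914992 to 16166416 and held beat-Ic and beat-Ia. On 3R, beat-VI stood in 197.1 kb from 24168188 to 24365270, and side-VI in 194.8 kb from 6784613 to 6979458. DIP-eta and DIP-theta shared 171.3 kb on 2L from 5549174 to 5720491, and dpr11 stood in 160.3 kb on 3R from 2308603 to 2468891. At their borders, the beat-III stretch ended at the first region inside beat-IIIc, and the beat-Ia stretch began at the region inside beat-Ib.

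**Figure D4:**
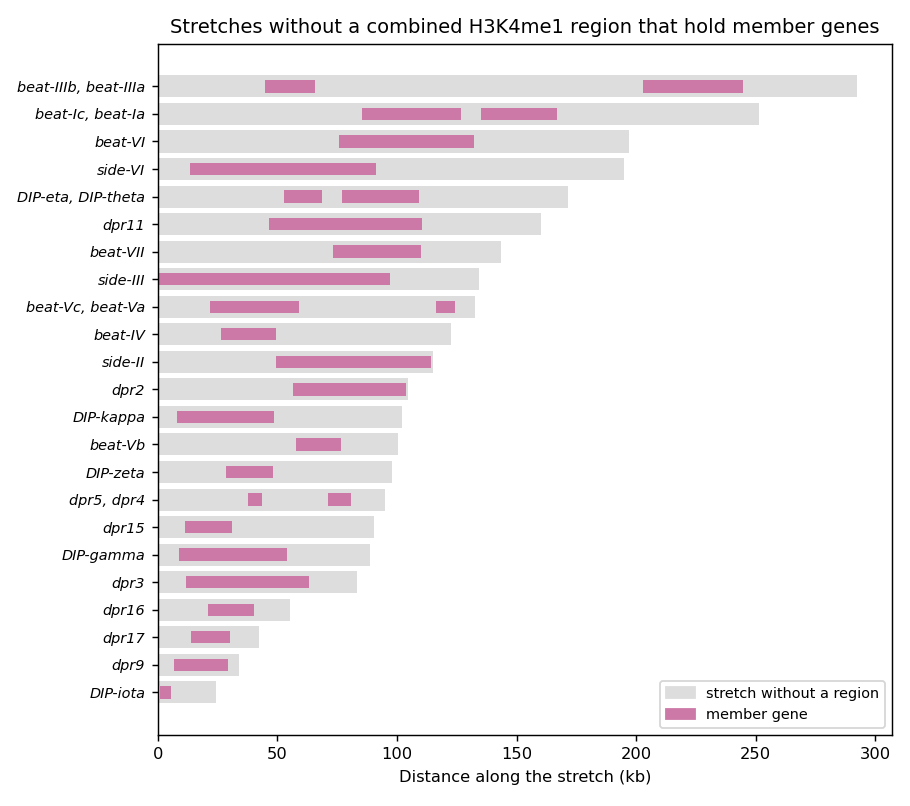
Stretches without a combined H3K4me1 region (grey bars, length in kb on the x axis) that hold the 28 members with no region inside the gene (pink bars, to scale). The 23 stretches run from 24.2 kb around DIP-iota to 292.5 kb around beat-IIIb and beat-IIIa.

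The low coverage extended beyond the genes. Some members lie near one another, as dpr4 and dpr5 do in a shared stretch. The sequence outside one member may therefore include another member, and the same stretch may be counted more than once. Within the first 5 kb outside the gene ends, regions covered 8.25% ± 0.19 (SD, n = 2) of the sequence at members and 37.6% ± 1.31 at length-matched genes. At 45 to 50 kb outside the values were 18.2% ± 0.19 and 32.5% ± 1.17. Within the first 5 kb inside the genes they were 2.92% ± 0.45 and 28.2% ± 1.42. At each distance the difference exceeded the spread between replicates. That spread does not measure variation among genes, which was not estimated for this profile. Of 300 neighbouring genes, 45.7% had a region in replicate 1 and 43.0% in replicate 2. They were the 5 coding genes on each side of the midpoint of each member. Their shares were above those of the members and below the 72.3% and 70.3% of all genes. The choice by midpoint did not leave out the 24 coding genes that lie inside members, so part of these shares may be read from within member spans. Set beside these neighbours in place of genes of like length, the median difference of the members was 0 percentage points. This median is held at 0 by the 15 members in replicate 1 and 18 in replicate 2 where both the member and the median of its neighbours were at 0%. Of the others, 15 members lay below their neighbours and 7 above in replicate 1, and 13 below and 6 above in replicate 2. At dpr16 the median of the neighbours was 66.7% and 69.6% in the replicates, and at the adjacent dpr4 and dpr5 it was 65.4% and 59.5%, against 0% at each of these 3 genes. Taking all bases together, regions covered 24.5% ± 1.08 (SD, n = 2) of the neighbours, against the 3.28% of the members. What the gene and what its neighbourhood each contribute cannot be told apart here.

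**Figure D5:**
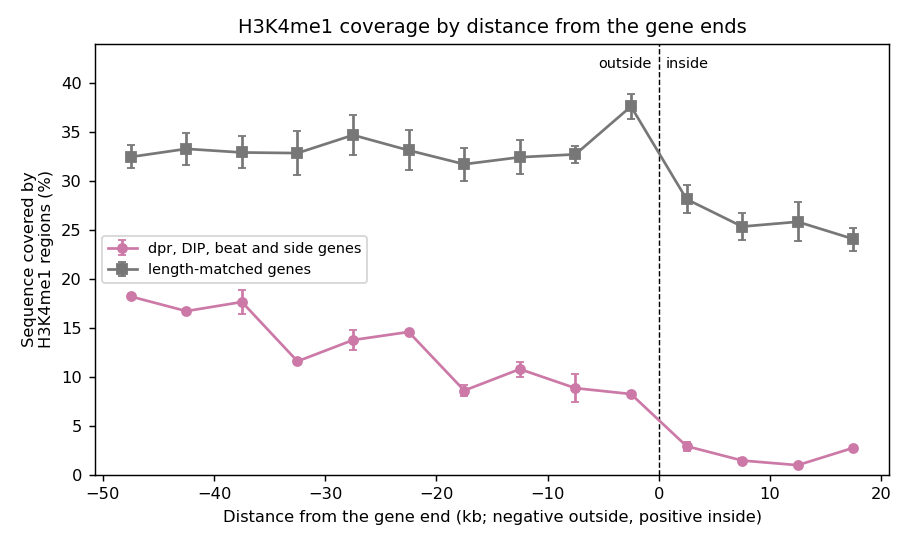
Share of sequence covered by H3K4me1 regions (y axis, %) in 5 kb bins by distance from both gene ends (x axis, kb, negative outside the gene), for the members and for length-matched genes. Points are means and bars are SD of both replicates; inner bins use genes long enough to fill them. The members lie below the matched genes at every distance, from 18.2% at 45 to 50 kb outside to 2.92% in the first 5 kb inside.

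A list of other genes, most of them of axon guidance or cell adhesion, had higher shares than the members, a difference that was not tested. Of 42 genes listed, 33 lay on these arms. They included guidance receptors, cadherins, neuroligins and other immunoglobulin proteins, with a median length of 40.2 kb. Also among them were bnl, Cad96Ca, Cad99C and tok, whose part in neuronal wiring was not examined here. Their mean covered shares over both replicates were 40.5%, 38.8%, 27.7% and 22.2%. A region was present at 24 of 33 in replicate 1 (72.7%), at 23 in replicate 2 (69.7%) and at 25 in the combined list (75.8%, interval 57.7 to 88.9). Like the members they are long, and among genes of at least 10 kb they too had a lower share than other genes. Lengths were not matched there, with a median of 40.6 kb for the listed genes and 21.7 kb for the others. What length contributes to this difference was not tested. Of the 29 that are at least 10 kb long, 69.0% had a region in replicate 1 and 65.5% in replicate 2, and 27.6% had none in any list. Of the 753 genes of that length that are no members, 88.2% and 85.8% had a region in the replicates. The 31 members of that length had one in 25.8% and 22.6%. The median covered share of the 33 genes was 19.2% in replicate 1 and 17.9% in replicate 2, against 0% for the members in each, while over all protein-coding genes it was 42.8% and 39.8%. The highest were Ama (amalgam, a secreted immunoglobulin protein; 100% in all lists), Cont (contactin; 76.3% and 61.3% in the replicates) and Wnt4 (a secreted Wnt ligand; 72.3% and 61.2%).

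Genes of this list with no region included robo3 (a receptor of the repellent Slit), whose relative robo2 was covered to 44.7% and 44.1%. The neuroligin genes Nlg1, Nlg3 and Nlg4 had none, while Nlg2 had 6.47% and 6.18%. CadN2 had none and CadN 14.9% and 13.5%, and fred had none while its relative ed had 34.2% and 25.8%. These relatives were named after their values were seen. By the rule for naming, the lowest values were shared by 9 genes at 0% in both replicates, which also include Dscam3, kek3 and klg.

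The absence of a listed region is not evidence that H3K4me1 is absent. The depth of sequencing is unknown, so no detection limit can be given. In whole embryos a mark in few cells and a weak mark in many cells cannot be told apart. How well reads map to these sequences was not examined.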

How the data were processed

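H3K4me1 ChIP-seq regions were analysed for 2 libraries of 14 to 16 h Oregon-R embryos. Reads were handled with Bowtie 0.12.7, per the submitters' processing notes. The caller of the regions and its settings are not named in the sources used here. Replicate numbers follow the sample under which GEO holds each list. The authors deposited regions of significant enrichment with a score, on FlyBase release 5 per the file headers. The single record named as depleted was left out. Depth is unknown. Genes came from a RefSeq table on release 6: positions on 2L were used unchanged, and those on 3R were shifted by the constant offset between the releases. As a check of this placement, 46.9% of 3R gene ends lay in replicate 1 regions, against 39.2% and 39.7% when genes were moved by 5 kb either way (2L: 42.2%, 36.9% and 34.8%). Gene coordinates are not printed, since the table is on another release.

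Overlap meant at least 1 bp. The flank was 2 kb. Matched genes were the 10 nearest in length on the same arm. On simulated lists of 6039 genes, 100% of overlaps and covered lengths were recovered. Python 3.11.15, numpy 2.4.6, pandas 2.3.3 and scipy 1.17.1 were used. The members and gene lists were chosen with earlier results of these data known. Values in each list are given for the highest and lowest members of each family by mean covered share, and for known partners; no region was shared by members. The planned comparison of gene starts, the profile by distance from the start and the printing of promoter sequence were not made, because the table gives no strand or sequence. The use of both gene ends, of neighbouring genes, of region-free stretches and of regions that overlap no other coding gene was chosen after the data were seen. Other settings were the flank, the overlap, the score, joining of regions and the matching.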

Additional observations from a re-analysis of the deposited data

How the results depend on the processing

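The share of members with a region was at most 35.1% in all settings tried. It was 27.0% as reported, 35.1% in the combined list, 20.3% with no flank, 28.4% with a flank of 5 kb, 20.3% with the top 50% of regions by score, 25.7% with regions found in both replicates and 14.9% with regions that overlap no other coding gene. It was 27.0% when either replicate was left out, with regions joined and with an overlap of at least 500 bp. Over all protein-coding genes the share was 75.0% in the combined list, and 62.9% and 61.1% in the replicates with no flank. For the flank of 5 kb and for the filters of regions by score, replicate or other coding genes, no share of all genes is given. The member shares in those settings therefore have no like value to be set against. The median covered share of members was 0% in each setting except when the bases of all members were pooled (3.28%). Members with an end in a region, 10.8% as a mean of both replicates, came to 6.76% in the top 50% of regions, to 14.9% with 500 bp added at each end, and to 8.11% to 13.5% when either replicate was left out. The median difference to length-matched genes, -22.1 percentage points, was -29.1 in the combined list and -11.8 in the top 50%. It was 0 against 5 neighbouring genes on each side of the midpoint of the member. When either replicate was left out it was -24.5 to -19.7. The number of members above their matched median, 2, was 4 in the combined list, 4 in the top 50%, 5.5 with 5 matched genes, 1 with 20 and 6.5 against neighbours. The median best score percentile of members with a region, 59.0, was 66.3 in the combined list and 55.2 with no flank. Planned results that needed the gene start were not run. No paired analysis was possible because the input libraries were not analysed here and no test compared groups.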

Other observations

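Other genes stood inside the members and in the stretches around them. Within the spans of 25 members lay 59 other genes, of which 24 were protein-coding and 35 noncoding. The coding genes include CG34106, whose span is the same as that of beat-IIIa. In the combined list 2 of the 59 were touched by a region, and both are the noncoding genes in beat-Ib named above. Combined regions covered 4.67% of the bases of member spans plus 2 kb, so a low count among genes inside these spans follows from that coverage. It is not a separate result about the 59 genes. The stretch of 171.3 kb with DIP-eta and DIP-theta also held GluRIIA and GluRIIB, which encode glutamate receptor subunits of the neuromuscular junction. The stretch of 292.5 kb with beat-IIIb and beat-IIIa held Gr36a, Gr36b and Gr36c, genes of gustatory receptors. Around beat-VII, 143.5 kb without a region held 16 coding genes, most of them Twdl genes, which encode cuticle proteins. These neighbours were named after the lists of genes in the stretches were seen.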
